A study of Bos taurus with 9 samples.

Results

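The genes described here are 10 components of insulin and insulin-like growth factor (IGF) signalling in bovine embryos. They are the binding protein genes IGFBP2, IGFBP3, IGFBP4, IGFBP5 and IGFBP7, the receptor genes IGF1R, IGF2R and INSR, and IRS1 and GRB14, whose products act just inside the cell. They were picked by symbol from a table of 22127 genes. All 10 were found, each once, and all 10 were among the 16469 genes with enough counts to be tested.

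RNA sequencing was run on 9 libraries, each from a pool of 9 to 11 blastocysts at day 8 after in vitro fertilisation. What differed was the medium in which the oocytes, still inside their cumulus cells, had matured for 24 hours. Glucose was at 5.5 mM for the control libraries and at 2.75 mM for the low glucose and the BHB libraries, the latter with 1.8 mM BHB (read as beta-hydroxybutyrate, a ketone body), and each medium gave 3 libraries. All 3 media also contained serum, pyruvate, follicle-stimulating hormone, estradiol and gentamicin, and the protocol gives a single fertilisation and culture procedure. The labels do not give the animals, breed or sires, and do not state that the replicates are independent cultures. The p-values therefore cover the spread among these pools alone, which may be technical.

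IGF1 and IGF2 are secreted growth factors that signal through the tyrosine kinase IGF1R and, with insulin, through the related kinase INSR. Most IGF outside cells is held by IGF binding proteins, which prolong its life and control its access to receptors, and which are released from it by proteases. IGF2R carries IGF2 to lysosomes for breakdown and does not signal as a kinase. Preimplantation embryos carry these receptors, and insulin and IGFs are known to favour growth and survival of embryos in culture.

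Total estimated counts ran from 55611205 to 75178898 per library. Levels are given in CPM, counts per 1e6 library counts after scaling between libraries by TMM factors, and they compare libraries for 1 gene, not genes with each other, because transcript lengths were not used. Differences are log2 fold changes from edgeR's quasi-likelihood test, and a gene is said to have risen or fallen where its p-value, adjusted by Benjamini-Hochberg over all 16469 genes, was under 0.05. Markers listed for trophectoderm, epiblast and hypoblast were read in these libraries, and their levels varied widely. In control libraries KRT8 and CDX2 of trophectoderm averaged 9024 and 132 CPM, POU5F1 and NANOG of epiblast 954 and 45.7 CPM, and GATA6 of hypoblast 565 CPM. Others listed were low in control, with ELF5 of trophectoderm at 0.315, LIN28B of epiblast at 3.47 and FOXA2 of hypoblast at 0.212 CPM. Whether each lineage was present was not tested. SOX2, also listed for epiblast, was not found by its symbol among the genes counted and so was not analysed.

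Of the 10 genes, IGFBP5, IGFBP7, IRS1 and GRB14 fell in blastocysts from low glucose medium, and IGFBP5 and IGFBP7 also fell where BHB was added. In low glucose 4 of 10 fell, against 2.02% of all tested genes, and with BHB 2 of 10 fell, against 1.38%. Of the 4, GRB14 had enough counts to be tested only through its control and BHB libraries. No gene of the 10 rose, as was true of nearly all tested genes, of which 0.00607% rose in each comparison. At an unadjusted p under 0.05 the 10 held 4 genes in low glucose, against 7.33% of all tested, and 3 with BHB, against 7.32%. The 10 genes were listed with earlier results of these data known, so these shares describe the list and are not independent evidence about it. Their median log2 fold change was -0.20 in low glucose and -0.21 with BHB, where the medians over all tested genes were 0.02 and 0.01. Both comparisons use the same 3 control libraries. In bulk RNA from pooled embryos, fewer cells of a type and less RNA per cell cannot be told apart.

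**Figure D1:**
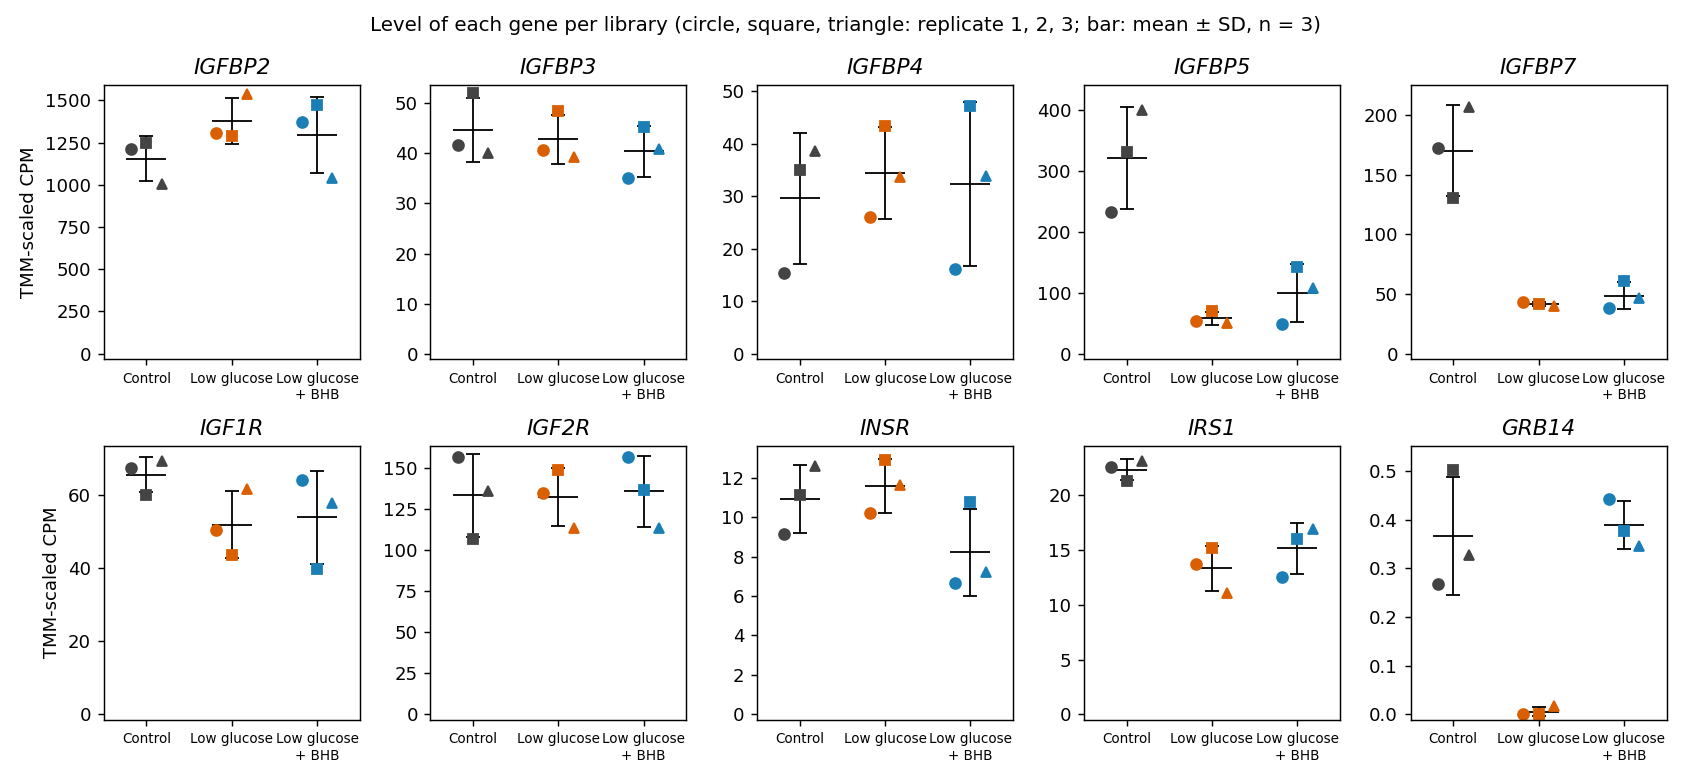
Level of each of the 10 genes in TMM-scaled CPM (vertical axes, from 0 and separate for each gene) in every library of the 3 media, with circles, squares and triangles for replicates 1, 2 and 3 and black bars for the mean ± SD (n = 3). All control points of IGFBP5, IGFBP7 and IRS1 lie above all points of both low glucose media, and GRB14 is near 0 only in low glucose without BHB.

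IGFBP7 encodes a secreted protein of the matrix and vessels that binds IGFs weakly compared with the other binding proteins and can also bind insulin. Control libraries held 172, 131 and 207 CPM of IGFBP7. Low glucose libraries held 43.4, 41.2 and 39.7 CPM, and those with BHB held 38.0, 60.6 and 46.8 CPM. The lowest control library held more than 2-fold the level of the highest library of either low glucose medium, and the low glucose libraries were nearly equal, with a coefficient of variation of 4.38%. The level fell by 4.10-fold in low glucose (95% interval 3.07 to 5.48, edgeR adjusted p = 0.000712) and by 3.51-fold with BHB (2.63 to 4.67, edgeR adjusted p = 0.00240). In each comparison with control it had the smallest p of the 10 genes, and it ranked 4 among all tested genes. Its call was kept in 16 of 16 alternative analyses in both comparisons, with log2 fold changes between -2.19 and -1.85 in low glucose and between -2.0 and -1.63 with BHB.

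IGFBP5 encodes a binding protein of high affinity for IGFs that is often held in the extracellular matrix. It was measured at 232, 331 and 400 CPM in control, at 54.0, 70.6 and 50.4 in low glucose, and at 49.0, 142 and 108 CPM with BHB. Both low glucose media lay below every control library. With BHB, replicate 1 was as low as the low glucose libraries, and the other 2 replicates were higher than all of them. The level fell by 5.50-fold in low glucose (95% interval 3.36 to 9.02, edgeR adjusted p = 0.00202) and by 3.22-fold with BHB (1.99 to 5.20, edgeR adjusted p = 0.0212). The fall in low glucose was called in 16 of 16 alternatives. The fall with BHB was called in 13 of 16 and lost its call without control replicate 2 (log2 fold change -1.66), control replicate 3 (-1.48) or BHB replicate 3 (-1.75).

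The other 3 binding protein genes did not pass in any comparison. IGFBP2, a binding protein gene widely expressed in embryos and fetal tissue, was measured at 1155 ± 131 CPM in control, 1377 ± 139 CPM in low glucose and 1294 ± 223 CPM with BHB (SD, n = 3 each). All 3 low glucose libraries lay above all 3 control libraries, but the log2 difference was 0.25 with an interval from -0.06 to 0.56 (edgeR adjusted p = 0.891). The product of IGFBP3 is the main IGF carrier of blood plasma, and its levels were 44.6 ± 6.43, 42.8 ± 4.94 and 40.4 ± 5.07 CPM in the same order. Its intervals against control ran from -0.38 to 0.26 in low glucose and from -0.46 to 0.18 with BHB on the log2 scale, so a fall as large as that of IGFBP5 or IGFBP7 lies outside them.

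IGFBP4, which encodes a binding protein cut by the protease PAPPA, varied more between replicates than between media. Its levels were 15.3, 34.9 and 38.6 CPM in control, 25.9, 43.5 and 33.7 in low glucose and 16.0, 47.1 and 33.8 CPM with BHB. Replicate 1 was the lowest library of its medium in all 3 media, a pattern that 8.00% of tested genes shared and that INSR also showed. The intervals for IGFBP4 against control, -0.61 to 1.04 in low glucose and -0.70 to 0.95 with BHB, are correspondingly wide. IGFBP5 had its lowest value in replicate 1 in control and with BHB, but not in low glucose.

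IGFBP5 and IGFBP2 are neighbours in the gene order of RefSeq's ARS-UCD2.0 assembly. The neighbour of IGFBP5 on its other side, TNP1, stood at a log2 fold change of 0.49 (SE 0.540) in low glucose and 0.51 (SE 0.540) with BHB. Of the run IGFBP2, IGFBP5 and TNP1, IGFBP5 alone passed in these comparisons. TNP1 was low, at 1.21 CPM in control, so its fold changes are imprecise. IGFBP7 shares part of its span with POLR2B, a subunit gene of RNA polymerase II, which stood at -0.11 (SE 0.114) and -0.17 (SE 0.114). The library kit named in the labels does not mark strand, so reads from shared sequence cannot be told apart by strand.

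**Figure D2:**
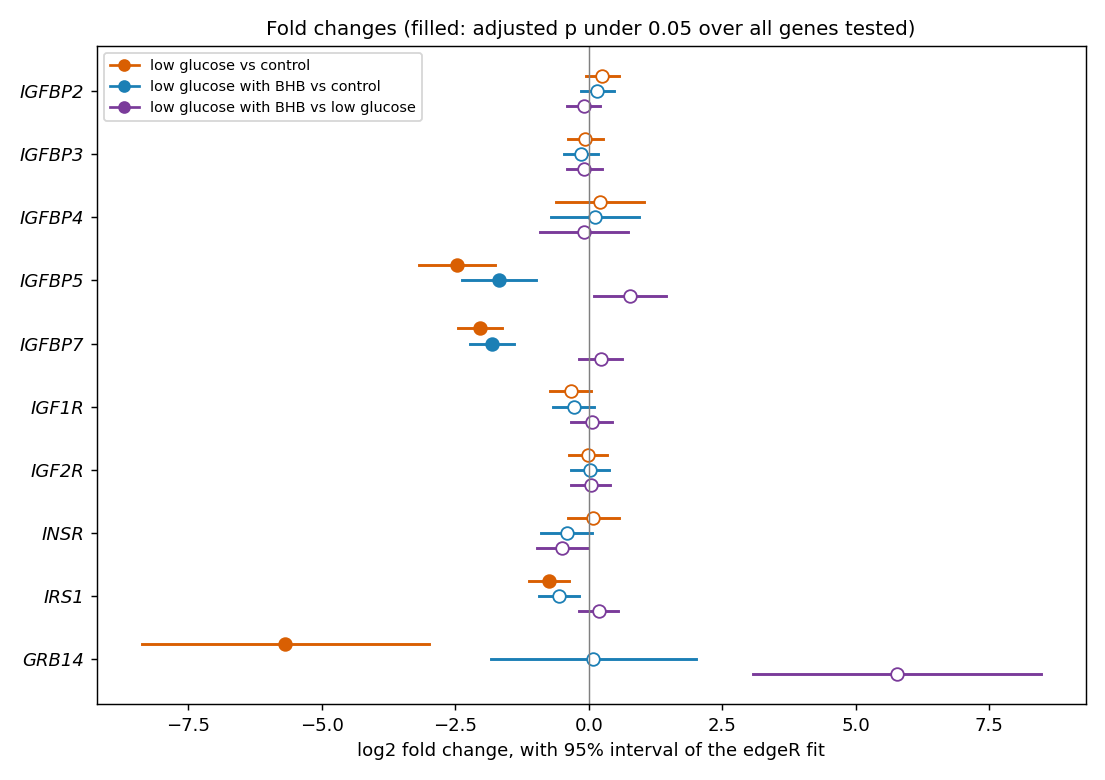
Log2 fold change (horizontal axis) of each of the 10 genes in the 3 comparisons, as points with 95% intervals of the edgeR fit, filled where the adjusted p over all tested genes was under 0.05. The filled points are IGFBP5 and IGFBP7 in both comparisons with control, and IRS1 and GRB14 in low glucose against control, while no point of BHB against low glucose is filled.

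None of the 3 receptor genes passed in any comparison. IGF1R was measured at 67.5, 60.1 and 69.1 CPM in control, 50.4, 43.6 and 61.7 in low glucose and 64.1, 39.7 and 57.8 CPM with BHB. Its means were 65.6 ± 4.82, 51.9 ± 9.16 and 53.9 ± 12.7 CPM (SD, n = 3 each), and the groups overlapped. The log2 difference was -0.34 in low glucose (interval -0.73 to 0.05, edgeR adjusted p = 0.835) and -0.28 with BHB (interval -0.67 to 0.11, edgeR adjusted p = 0.880).

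IGF2R, the receptor gene for IGF2 clearance, was the most even across media. Its means were 133 ± 25.1, 132 ± 17.6 and 136 ± 21.7 CPM, and its log2 differences from control were -0.01 (interval -0.37 to 0.35) in low glucose and 0.03 (interval -0.33 to 0.39) with BHB. INSR, the insulin receptor gene, was measured at 10.9 ± 1.73 CPM in control, 11.6 ± 1.35 in low glucose and 8.21 ± 2.21 CPM with BHB. With BHB, replicates 1 and 3 held 6.68 and 7.22 CPM, under every library of the other media, and replicate 2 held 10.7 CPM, within their range. The log2 difference of BHB from low glucose was -0.49 (interval -0.97 to -0.01, unadjusted p = 0.0450, edgeR adjusted p = 1.00).

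IRS1 encodes the docking protein that both INSR and IGF1R phosphorylate to recruit PI3 kinase. Control libraries held 22.6, 21.3 and 23.1 CPM, a coefficient of variation of 4.33%. Low glucose libraries held 13.7, 15.2 and 11.1 CPM, and those with BHB 12.5, 16.0 and 16.9 CPM. Every library of both low glucose media was below every control library. The level fell by 1.68-fold in low glucose (95% interval 1.29 to 2.17, edgeR adjusted p = 0.0469). With BHB it was 1.47-fold lower (1.14 to 1.91), which did not pass (edgeR adjusted p = 0.232), and the test of BHB against low glucose gave a log2 difference of 0.18 (interval -0.19 to 0.56, edgeR adjusted p = 1.00).

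The call for IRS1 in low glucose rested near the threshold. It was kept in 6 of 16 alternatives, with log2 fold changes between -0.84 and -0.63. Of the 9 fits that each left out a library, only that without BHB replicate 1 kept it. The call was lost without control replicate 1 (-0.74), 2 (-0.78) or 3 (-0.70), without low glucose replicate 1 (-0.75), 2 (-0.84) or 3 (-0.63), and without BHB replicate 2 or 3 (-0.74 each), with adjusted p between 0.0532 and 0.205. It was also lost with the replicate number as a block (-0.75, edgeR adjusted p = 0.0509) and without all 3 replicate 1 libraries (-0.76, edgeR adjusted p = 0.172).

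GRB14 encodes an adaptor that binds the active insulin receptor and inhibits its kinase. It had few counts, and low glucose without BHB stood apart from both other media. Control libraries had 16, 36 and 22 counts, low glucose libraries 0, 0 and 1, and those with BHB 27, 28 and 19. In CPM these were 0.269, 0.502 and 0.327 in control, 0, 0 and 0.0170 in low glucose, and 0.443, 0.378 and 0.345 with BHB. All low glucose libraries were below all others, and control and BHB overlapped.

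Scaled by library size, the 74 counts of control were 72.9-fold those of low glucose (exact 95% counting interval 12.7 to 2916), and the 74 counts with BHB were 76.1-fold (13.2 to 3046). These intervals cover counting error only. GRB14 passed the filter on low counts through its control and BHB libraries alone, because the low glucose libraries held 0, 0 and 1 counts. A gene this low in all 3 media would not have been tested, and the p-values against low glucose do not allow for this. With that limit, GRB14 fell in low glucose against control (edgeR adjusted p = 0.0324), with a fitted log2 fold change of -5.68 that depends on the prior count. BHB against control gave 0.09 (interval -1.84 to 2.01). The difference of BHB from low glucose had an unadjusted p of 0.000537, rank 3 among all tested genes, but an edgeR adjusted p of 1.00.

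The call for GRB14 in low glucose was kept in 5 of 15 alternatives. It was lost without control replicate 2 (-5.38) or 3 (-5.74), low glucose replicate 1 (-5.21), 2 (-5.17) or 3 (-7.60), and BHB replicate 2 (-5.68) or 3 (-5.69), with adjusted p between 0.0552 and 0.170. It was also lost with the replicate number as a block (-5.69, edgeR adjusted p = 0.0724), in the fit of the 6 libraries compared (-5.69, edgeR adjusted p = 0.102) and without all 3 replicate 1 libraries (-5.42, edgeR adjusted p = 0.164). Its neighbours in RefSeq's gene order, COBLL1 and FIGN, stood at 0.04 (SE 0.145) and 0.30 (SE 0.528) in low glucose. FIGN was low, at 1.29 CPM in control, so its fold change is imprecise.

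BHB added to low glucose medium changed none of the 10 genes by edgeR's adjusted p, nor any of the 16469 genes tested (0%). At an unadjusted p under 0.05 there were 270 genes, 1.64% of those tested, and 3 of the 10, which were IGFBP5, INSR and GRB14. Of these, GRB14 passed the filter on low counts only through its control and BHB libraries, which its p-value does not allow for. DESeq2 called 1 gene lower and 1 higher, neither of them among the 10. IGFBP5 was higher with BHB by 0.77 on the log2 scale (interval 0.09 to 1.45, unadjusted p = 0.0290, edgeR adjusted p = 1.00), and its groups overlapped. IGFBP7 differed by 0.23 (interval -0.18 to 0.63). The median of the 10 was 0.05, against 0.01 over all tested genes.

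Without regard to the test, 4 of the 10 genes were lower in every low glucose library than in every control library, as were 8.85% of all tested genes, and 1, IGFBP2, was higher, as were 4.31%. With BHB 3 were lower, IGFBP5, IGFBP7 and IRS1, against 8.56%, and 0 were higher, against 4.77%. Between BHB and low glucose 1 was higher, GRB14, against 2.96%, and 0 were lower, against 2.54%. GRB14 is counted here and among the 4 although it passed the filter on low counts only through its control and BHB libraries.

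The rest of the pathway was described by a list of 56 genes, of which 53 were tested. HTRA1, LRP1 and FOXO1 fell in low glucose and with BHB, 3 of 53 each, against 2.02% and 1.38% of all tested genes, and 0 rose. The list's median was 0.03 in low glucose and 0.09 with BHB, against 0.02 and 0.01 over all tested genes. None of the 9 adaptor genes, the 14 genes of PI3 kinase, AKT and their phosphatases, or the 8 genes of the mTORC1 branch passed. AKT1, a kinase gene central to the pathway, stood at 0.17 (SE 0.125) in low glucose and 0.13 (SE 0.125) with BHB. IRS2, the docking protein gene related to IRS1, was measured at 12.2, 11.0 and 11.9 CPM on average in control, low glucose and BHB, and GRB10, which is related to GRB14, at 56.2, 59.1 and 69.1 CPM.

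**Figure D3:**
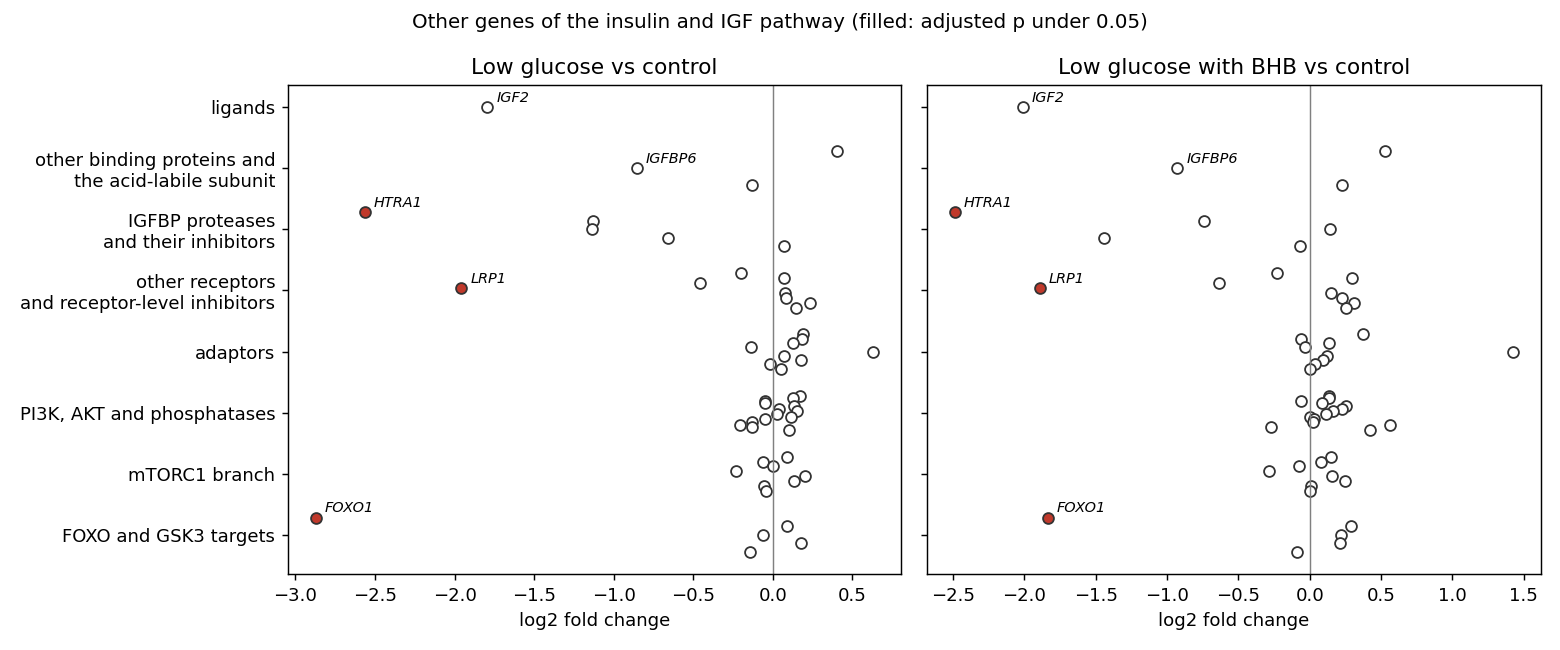
Log2 fold change (horizontal axes) against control of the 53 tested genes of the pathway list, 1 point per gene in rows by role, for low glucose (left) and low glucose with BHB (right), on separate scales and filled where the adjusted p was under 0.05. HTRA1, LRP1 and FOXO1 are the filled points on both sides, and IGF2, at -1.79 and -2.01, is unfilled.

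Among the ligands, INS had no counts in any library, where 3 counts would be 0.0405 to 0.0545 CPM, and IGF1 had 2 counts in all, both in control. IGF2 was measured at 33.4, 15.2 and 17.6 CPM in control, 12.1, 2.96 and 4.04 in low glucose and 7.14, 6.37 and 2.87 CPM with BHB. All libraries of both low glucose media were below all control libraries, as for 8.85% of all tested genes in low glucose and 8.56% with BHB. Neither log2 difference of IGF2 passed, at -1.79 (SE 0.508, edgeR adjusted p = 0.132) and -2.01 (SE 0.512, edgeR adjusted p = 0.102). IGF2 passed in 3 of 16 alternatives in low glucose and in 4 of 16 with BHB. Without low glucose replicate 1 both differences passed, at -2.64 (edgeR adjusted p = 0.0155) and -2.0 (edgeR adjusted p = 0.0249), and with the replicate block both did, at -1.94 and -1.97. The difference in low glucose also passed without all 3 replicate 1 libraries (-2.23, edgeR adjusted p = 0.0260). That with BHB also passed with no filter on low counts (edgeR adjusted p = 0.0489) and in the fit of the 6 libraries compared (edgeR adjusted p = 0.0350).

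IGFBP6, the gene of a binding protein that prefers IGF2, was lower by 0.85 (SE 0.317) and 0.93 (SE 0.317) on the log2 scale in low glucose and with BHB and did not pass (edgeR adjusted p = 0.391 and 0.350). IGFBP1 had at most 13 counts in a library and was not tested.

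HTRA1 encodes a secreted serine protease that can cut IGF binding proteins, IGFBP5 among them. It was measured at 141, 51.5 and 77.6 CPM in control, 17.2, 13.2 and 15.2 in low glucose and 13.4, 14.9 and 19.9 CPM with BHB. It fell by 2.56 (SE 0.309, edgeR adjusted p = 0.00153) and by 2.49 (SE 0.308, edgeR adjusted p = 0.00325) on the log2 scale. The PAPPA gene did not pass, at 3.48 ± 2.03, 1.59 ± 1.10 and 2.09 ± 0.551 CPM.

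LRP1, the gene of a large endocytic receptor of many secreted proteins, fell by 1.96 (SE 0.292) and 1.89 (SE 0.291), from 131 ± 56.9 CPM in control to 33.6 ± 10.1 and 35.3 ± 7.70 CPM. FOXO1 encodes a transcription factor that insulin signalling keeps out of the nucleus. Its levels were 21.2, 8.39 and 14.4 CPM in control, 1.44, 2.17 and 2.41 in low glucose and 4.07, 3.20 and 5.07 CPM with BHB. The log2 fold change in low glucose was -2.87 (edgeR adjusted p = 0.00165), a call kept in 16 of 16 alternatives. With BHB the log2 fold change was -1.84 (edgeR adjusted p = 0.0191), a call kept in 10 of 16 alternatives. It was lost without control replicate 1 (-1.47) or 3 (-1.83), without BHB replicate 1 (-1.83), 2 (-1.68) or 3 (-2.01), and without all 3 replicate 1 libraries (-1.47, edgeR adjusted p = 0.176). Control replicate 1 held the highest level of IGF2, HTRA1, LRP1 and FOXO1, whereas IGFBP5 was lowest there among controls.

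Markers of other cells were read in the same libraries, because IGFBP5 and IGFBP7 are also made by connective tissue and follicle cells. Of 13 stromal and mesenchymal markers, 6 fell in low glucose and 7 with BHB, against 2.02% and 1.38% of all tested genes. Their median log2 fold changes were -1.70 and -1.77, against 0.02 and 0.01 over all tested genes. The largest control values of LUM, a proteoglycan gene, and VIM, an intermediate filament gene, were 204 and 278 CPM, both in control replicate 1. Of the 13 markers, DCN and PDGFRB alone were highest in control replicate 3, at 13.8 and 16.9 CPM, and the rest in control replicate 1. IGFBP5 and IGFBP7 were also highest in control replicate 3. The summed level of the 13 markers ran from 777 to 1530 CPM in control, from 263 to 480 CPM in low glucose and from 268 to 501 CPM with BHB, and none was at 0 in all libraries. Among the controls the sum, in which COL1A1, COL1A2, LUM and VIM weigh most, was highest in replicate 1, at 147% of the control mean. In that library IGFBP5 stood at 72.4% and IGFBP7 at 101% of their control means.

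Of 8 defining markers of cumulus and granulosa cells, NR5A1, a transcription factor gene of steroid-producing cells, fell in both media and was the only one to pass. The sum of the 8 ran from 35.7 to 43.4 CPM in control, from 27.3 to 30.7 CPM in low glucose and from 28.3 to 36.6 CPM with BHB. In low glucose 6 of the 8 had a fold change below 0, with a median of -0.68. With BHB 5 of 8 did, with a median of -0.54. Over all tested genes the medians were 0.02 and 0.01, and 2.02% and 1.38% fell. FOXL2, a transcription factor gene of granulosa cells, averaged 3.10 CPM in control against 1.37 in low glucose and 1.69 with BHB, and AMH, the anti-Müllerian hormone gene, averaged 1.12, 0.523 and 0.579 CPM. The most abundant of the 8, the aromatase gene CYP19A1, averaged 21.2, 19.5 and 22.4 CPM, and FSHR, the receptor gene of follicle-stimulating hormone, 4.18, 4.85 and 3.60 CPM. INHA, an inhibin gene, had 66, 0 and 41 counts in control, 0 in each low glucose library and 33, 4 and 7 with BHB. Of 11 further cumulus and granulosa genes, 3 fell in low glucose and 2 with BHB, against 2.02% and 1.38% of all tested genes. Their fold changes were below 0 for 10 of 11 and 9 of 11. The medians were -0.67 and -0.84, against 0.02 and 0.01 over all tested genes. VCAN, a matrix proteoglycan gene, fell in both, from 74.9 CPM in control to 12.8 and 7.71 CPM. The sums of the 11 overlapped between media, but PTGS2, a prostaglandin synthase gene that did not pass, was the largest term, at 451, 694 and 666 CPM. The part of these cells in the levels of IGFBP5, IGFBP7, IRS1 and GRB14 was not tested.

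None of the 8 trophectoderm or 5 epiblast markers measured passed in either comparison, and of 6 hypoblast markers GATA4 alone fell. The shares of all tested genes that fell were 2.02% in low glucose and 1.38% with BHB. Blood and immune markers summed to at most 6.50 CPM and oocyte markers to at most 7.12 CPM in any library.

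**Figure D4:**
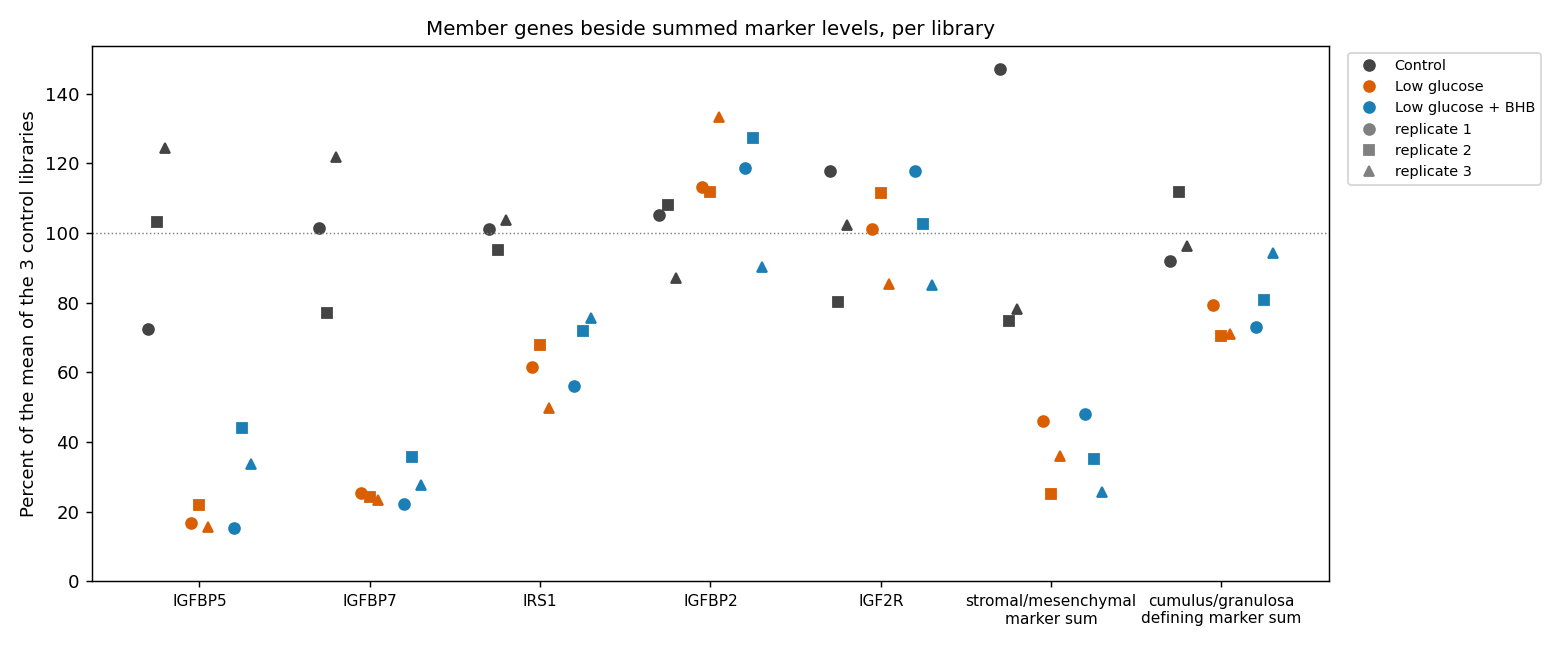
Level per library as a percent of the mean of the 3 control libraries (vertical axis, from 0) for 5 of the 10 genes and for the summed CPM of 2 marker lists, with colours for media and symbols for replicates. IGFBP5, IGFBP7 and the stromal and mesenchymal sum all lie under 50% in both low glucose media, IRS1 lies between 49.7% and 75.7%, and IGFBP2 and IGF2R spread around 100%.

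Genes with profiles most like those of the 4 that fell were found by the root mean square difference of log2 CPM over the 9 libraries, each gene centred on its own mean. For IGFBP7 they were CD276, GALNT16 and FAM78A, at 0.18, 0.19 and 0.21, where the median over all genes was 0.98. CD276, an immune checkpoint ligand gene, changed by -1.90 in low glucose and -1.66 with BHB. For IGFBP5 they were the basement membrane collagen gene COL4A4 (0.21), NR5A1 (0.25) and UCHL1 (0.27), against a median of 1.16. COL4A4 did not pass in low glucose or with BHB (edgeR adjusted p = 0.196 and 0.714).

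NR5A1 was measured at 7.14, 6.69 and 8.78 CPM in control, 1.21, 1.24 and 0.865 in low glucose and 1.15, 2.89 and 1.82 CPM with BHB. As with IGFBP5, replicate 1 with BHB was low and replicates 2 and 3 were higher. NR5A1 was picked here by its likeness to IGFBP5 over these same libraries, so this match follows from the choice. For IRS1 the nearest were ARHGEF12 (0.13), NNT (0.14) and LRP12 (0.14), against a median of 0.45, and for GRB14 they were IQUB (0.68), RUNX3 (0.82) and SARDH (0.83), against 1.69. ARHGEF12 and SARDH passed in low glucose but not with BHB, and NNT, LRP12, IQUB and RUNX3 passed in neither.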

How the data were processed

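RNA sequencing of 9 pooled blastocyst libraries was analysed from 1 gene table. The authors deposited estimated counts per gene, of which 23.4% are not whole. Fastp, kallisto, DESeq2 and the build bosTau9 are named per the submitters' processing notes, with roles, versions and annotation not given in the sources used here, so how reads shared by similar genes were split is unknown. Poly(A) RNA was enriched and NEBNext Ultra II kits were used, per the labels' protocols.

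Counts were rounded and fitted in edgeR 4.0.16 (R 4.3.3) with all 9 libraries, 3 group means, TMM factors and filterByExpr (minimum count 10, minimum total 15), which set 5658 genes aside. Two-sided p-values were adjusted by Benjamini-Hochberg and called under 0.05. Standard errors and 95% intervals were derived from the F statistic, and log2 CPM used a prior count of 2. For groups with at most 3 counts, ratios with exact binomial counting intervals are given. Those counting intervals leave out the spread between libraries, on which the precision of the fold changes also rests.

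The 10 genes, the lists and the rule for named genes were chosen with earlier results of these data known. The rule took the 10 genes, the ligands, pathway genes past the threshold, defining markers and 3 nearest profiles. Other genes named were chosen after their values were seen. RefSeq's ARS-UCD2.0 table served for gene order alone, and no coordinates or sequences are printed, since the builds differ.

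No replicate pair agreed within sampling noise (smallest chi-square per degree of freedom 39.2). Deviations from group means correlated at 0.115, 0.243 and 0.102 for same-numbered libraries of the low glucose media. Against control, the replicate 1 pairs correlated at 0.131 and 0.144, and the other pairs were under 0.1. Differently numbered libraries were not compared in this way, so whether the numbers mark pairs was not tested, and the labels do not say. The steps were run on counts simulated from the means and spread fitted to these data. This checks the steps but not whether the model suits the data. Alternatives were RLE factors, no filter, a mean count of at least 50, a replicate block, the 6 libraries compared alone, DESeq2 1.42.0, and leaving out each library with the tested genes held fixed. Leaving out all 3 replicate 1 libraries was added after the data were seen. Figures were drawn with matplotlib 3.10.9.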

Additional observations from a re-analysis of the deposited data

How the results depend on the processing

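Across 16 alternatives, 428 of 477 fold changes of the 10 genes kept their direction and side of the threshold, 23 lost their call, 0 gained one and 26 changed sign, each of these last for a gene that did not pass. Of the 10 genes, 4 fell in low glucose, but 2 with the replicate block (IRS1 at an adjusted p of 0.0509 and GRB14 at 0.0724), 2 without all replicate 1 libraries, and 2 to 4 when single libraries were left out. With BHB 2 fell, or 1 to 2 without single libraries. The block also took IGF2 past the threshold (-1.94 and -1.97, adjusted p = 0.00687 and 0.00839) and changed no call between the low glucose media. Other counts moved as well: DESeq2 called 548 genes lower and 9 higher in low glucose, 412 and 8 with BHB, and 1 and 1 between the low glucose media. Against control, 333 genes were lower in low glucose (193 to 393 without single libraries, with 193, 197 and 221 without control replicate 3, low glucose replicate 2 and low glucose replicate 3) and 1 higher (0 to 3, and 0 without all replicate 1 libraries). With BHB 227 were lower (90 to 250, with 121 and 90 without control replicates 1 and 3, and 131 and 92 without BHB replicates 1 and 3, and 99 without all replicate 1 libraries) and 1 higher (0 to 1, 4 with the block, 0 at a mean count of at least 50 and 0 without all replicate 1 libraries), and 5 pathway genes were lower in the fit of 6 libraries.

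Signs changed when single libraries were left out, over these ranges. In low glucose they were -0.15 to 0.064 for IGFBP3, -0.10 to 0.47 for IGFBP4, -0.15 to 0.12 for IGF2R and -0.032 to 0.21 for INSR. With BHB they were -0.25 to 0.45 for IGFBP4, -0.11 to 0.16 for IGF2R and -0.092 to 0.38 for GRB14. Between the low glucose media they were -0.19 to 0.043 for IGFBP2, -0.17 to 0.021 for IGFBP3, -0.46 to 0.24 for IGFBP4, -0.090 to 0.23 for IGF1R, -0.082 to 0.15 for IGF2R, -0.56 to 0.64 for IGF2, -0.27 to 0.34 for IGFBP6, -0.10 to 0.19 for HTRA1 and -0.11 to 0.34 for LRP1. Without all replicate 1 libraries, signs changed for IGF2R (0.11) in low glucose, GRB14 (-0.20) with BHB, and IGFBP4 (0.071), IGF1R (-0.11), IGF2R (-0.068) and IGF2 (0.41) between the low glucose media. The cause of these changes was not tested. GRB14 was not fitted at a mean count of at least 50. Its 1 count in low glucose limits the fold change that can be stated.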
